A study of Mus musculus with 6 samples.

Results

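The genes described here make, carry, break down or sense prostaglandins in the mouse kidney. The 10 members were taken by symbol from a count table of 24422 genes, and each symbol matched 1 row: Pla2g4a, Ptgs1, Ptgs2, Ptges, Ptgds, Slco2a1, Hpgd, Ptger1, Ptger2 and Ptger4. The prostaglandin receptor Ptger3 was kept among the tubule markers and among the other eicosanoid genes, and was not a member. RNA was sequenced from whole kidneys of C57BL/6 mice at postnatal day 13, all on an iron sufficient diet with 220 ppm iron. The Control group held 3 libraries labelled wild type. The TfR1 knockout group held 3 libraries labelled Tfr1f/f;SixCre, in which the floxed transferrin receptor TfR1 (gene symbol Tfrc) was deleted by a Cre driven from Six2, a gene of nephron progenitors. Six2Cre acts in the cells that become the nephron and not in the ureteric bud, the stroma or the vessels. In the embryo, the study described a few scattered TfR1+ cells in developing tubules that appeared to have escaped deletion. By postnatal day 13 it found TfR1+ cells in most proximal tubules, and most surviving thick limb tubules consisted of them entirely. The comparison addressed how loss of the cellular iron uptake receptor from the nephron lineage altered gene expression in the kidney after birth.

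Prostaglandins are local lipid signals. A phospholipase A2 frees arachidonic acid from membranes, a cyclooxygenase turns it into the common precursor prostaglandin H2, and terminal synthases convert that into prostaglandin E2, prostaglandin D2 and related products. A membrane transporter takes prostaglandins into cells, where a dehydrogenase oxidises them to inactive products, and the ligand that remains outside acts on receptors of the G protein-coupled family. In the kidney, prostaglandin E2 is known for acting on salt and water transport in the tubule, on medullary blood flow and on renin release at the macula densa, and mice without Ptgs2 develop kidney dysplasia after birth.

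The libraries held 16591156 to 22898008 counts in genes. Counts were divided by DESeq2 size factors to give normalized counts, and a fold change is the log2 ratio of TfR1 knockout to Control from DESeq2. A gene was called when its Benjamini-Hochberg adjusted p over the 16509 genes tested was below 0.05 and its fold was at least 2. Per the study, each group was 3 mice and the controls were littermates, so the p-values measure the spread between mice. Tfrc itself had 5534, 6485 and 3667 normalized counts in the Control replicates and 6976, 4046 and 5898 in the TfR1 knockout replicates, with a log2 fold change of 0.11 (SE 0.29, 95% interval -0.46 to 0.68) and a DESeq2 adjusted p of 0.853. Because reads were counted over the whole gene and Cre removed only part of it from 1 lineage, this value does not check the labels. Defining markers of proximal tubule, thick limb, collecting duct, podocyte, vessel and stroma were detected in every library. The adrenal cortex markers (Cyp11a1, Star, Cyp21a1 and Cyp11b1) summed to 18773 in Control replicate 1 and 2311 in TfR1 knockout replicate 3, against 149 to 366 in the other libraries, and values without that pair are given where a call changed.

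By DESeq2, 2 of the 10 members were called, Ptgs2 higher and Hpgd lower in TfR1 knockout, where 8.87% of all genes tested were called. With no fold threshold, 5 of the 10 passed the adjusted p by DESeq2 (Ptgs2, Ptges and Slco2a1 higher, Ptgds and Hpgd lower), against 14.9% of all genes tested. By edgeR's quasi-likelihood test, 4 of the 10 passed the adjusted p, against 6.02% of the 15308 genes tested there. Ptges was the member that passed by DESeq2 alone. In whole kidney RNA, more or fewer cells of a type cannot be told apart from more or less RNA per cell, and several cell type markers moved between the groups. Summed macrophage markers were higher in every TfR1 knockout library than in any Control library, the thick limb genes Umod and Slc12a1 were lower, and the macula densa gene Pappa2 and the collecting duct gene Aqp2 were higher. Other genes of those lists did not all move with them. Nos1 and Ptger3, listed with Pappa2, overlapped between the groups. In the collecting duct list Avpr2, Scnn1g and Hsd11b2 overlapped, while Aqp3, Scnn1b and Fxyd4 were higher in every TfR1 knockout library. The groups did not overlap for 6 members, 3 higher and 3 lower, and 33.7% of all genes tested had groups that did not overlap. The median log2 fold change was 0.12 over the members and 0.0071 over all genes tested. In the 4 libraries with low adrenal cortex markers, DESeq2 called 1 member, Hpgd, against 4.20% of all genes tested there.

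**Figure D1:**
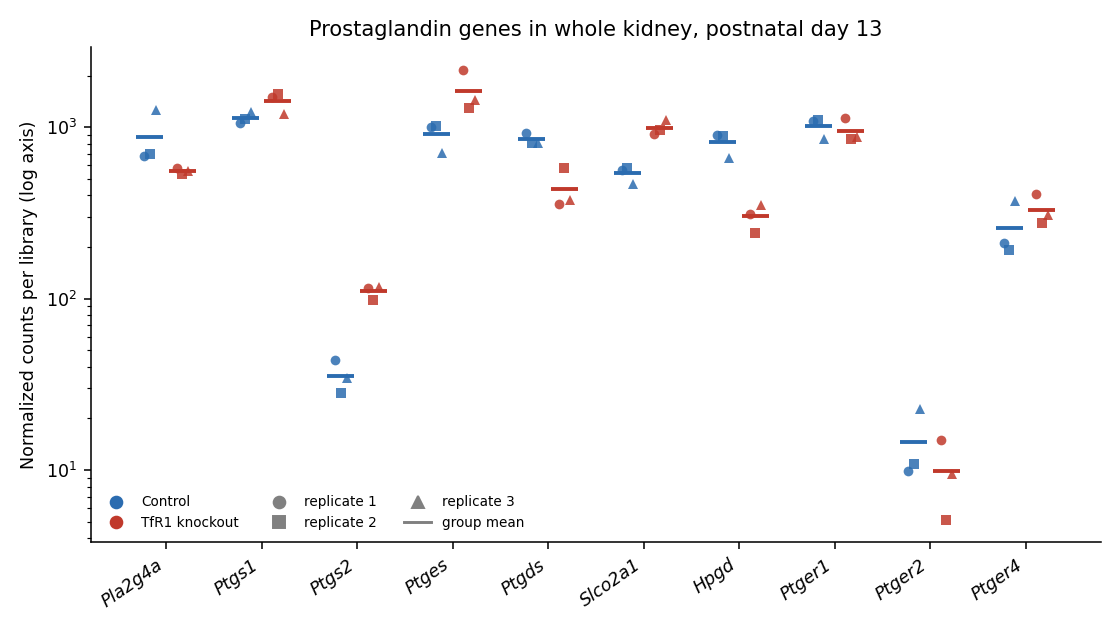
Normalized counts (log axis) of the 10 prostaglandin genes in each of the 6 libraries, with points for single libraries and bars for the group means. Ptgs2, Ptges and Slco2a1 lay higher in all 3 TfR1 knockout libraries than in any Control library, and Ptgds, Hpgd and Pla2g4a lay lower.

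Promoter sequences are shown for the 4 members whose adjusted p passed in both DESeq2 and edgeR, so that the start regions of the genes that rose and fell can be read side by side. Each window runs from 250 bases before to 50 bases after the RefSeq transcript start on the mouse assembly GRCm38.p6, written along the gene's own strand. Capitals mark matches, on either strand, to 6 motifs: the cAMP response element TGACGTCA, the hypoxia response cores ACGTG and GCGTG, the TATA box TATAAA, the NF-kB motif (GGGA and CC with any 4 bases between) and the CCAAT box. The cores can coincide where CACGTG reads the same on both strands. The windows lie at chr1:150099781-150100080 on the plus strand for Ptgs2, chr9:103008237-103008536 on the plus strand for Slco2a1, chr8:56294302-56294601 on the plus strand for Hpgd and chr2:25469700-25469999 on the minus strand for Ptgds.
Ptgs2: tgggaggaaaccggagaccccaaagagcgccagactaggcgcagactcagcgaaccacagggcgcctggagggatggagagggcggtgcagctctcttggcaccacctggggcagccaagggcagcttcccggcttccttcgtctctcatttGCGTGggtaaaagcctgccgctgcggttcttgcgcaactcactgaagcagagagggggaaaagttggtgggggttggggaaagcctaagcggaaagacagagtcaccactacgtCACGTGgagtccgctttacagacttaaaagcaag
Slco2a1: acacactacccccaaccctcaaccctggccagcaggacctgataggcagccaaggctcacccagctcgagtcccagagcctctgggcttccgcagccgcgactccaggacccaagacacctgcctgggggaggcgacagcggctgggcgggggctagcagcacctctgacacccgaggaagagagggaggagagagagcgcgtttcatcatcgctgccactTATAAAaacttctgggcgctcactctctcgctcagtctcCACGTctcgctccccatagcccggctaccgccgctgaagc
Hpgd: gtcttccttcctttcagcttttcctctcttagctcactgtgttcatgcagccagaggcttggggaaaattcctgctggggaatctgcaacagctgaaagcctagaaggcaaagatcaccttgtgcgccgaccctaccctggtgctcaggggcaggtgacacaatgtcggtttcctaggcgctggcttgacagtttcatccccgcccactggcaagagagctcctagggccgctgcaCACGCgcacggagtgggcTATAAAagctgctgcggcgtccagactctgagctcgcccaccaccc
Ptgds: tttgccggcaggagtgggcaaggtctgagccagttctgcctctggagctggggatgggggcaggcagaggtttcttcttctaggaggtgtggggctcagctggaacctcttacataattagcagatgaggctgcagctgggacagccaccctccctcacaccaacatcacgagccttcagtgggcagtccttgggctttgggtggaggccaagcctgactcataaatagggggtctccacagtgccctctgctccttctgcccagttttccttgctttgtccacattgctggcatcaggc

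In the Ptgs2 window, GCGTG began 98 bases before the start and CACGTG stood just after it, from base 17 of the transcript. The Slco2a1 window held TATAAA 29 bases before the start and CACGT from base 11 of the transcript. The Hpgd window held CACGC, the reverse complement of GCGTG, 14 bases before the start, and TATAAA from base 5 of the transcript. None of the 6 motifs was found in the Ptgds window. Across all 32851 RefSeq promoter windows of this length, ACGTG was present in 19.6%, GCGTG in 32.4%, TATAAA in 13.6%, CCAAT in 37.4%, the NF-kB motif in 20.7% and TGACGTCA in 1.79%. Of the 9 members with a window, 2 held ACGTG, 4 held GCGTG, 3 held TATAAA, 3 held CCAAT and none held the other pair of motifs. Ptger1 had no window. A match describes letters in these windows and was not tested as a binding site.

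Pla2g4a encodes cytosolic phospholipase A2, which frees arachidonic acid from membranes. On the mm9 assembly (NCBIM37) it lies at chr1:151676748-151808420 on the minus strand, 138.8 kb from Ptgs2. Pla2g4a had 674, 696 and 1257 normalized counts in the Control replicates and 581, 536 and 551 in the TfR1 knockout replicates. Control replicate 3 was far above the other Control libraries, while the 3 TfR1 knockout libraries lay close together and below every Control library. The means were 876 ± 330.4 in Control and 556 ± 22.7 in TfR1 knockout (SD, n = 3 each). On the log2 scale the difference was -0.65 (SE 0.29, 95% interval -1.22 to -0.09), and it did not pass, with an adjusted p of 0.107 by DESeq2 and 0.153 by edgeR. Without Control replicate 3 the difference was -0.30.

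Ptgs1 encodes the cyclooxygenase that most tissues keep at a steady level, at chr2:36085946-36107792 on the plus strand (mm9). Its libraries held 1065, 1109 and 1234 normalized counts in the Control replicates and 1507, 1571 and 1190.0 in the TfR1 knockout replicates. TfR1 knockout replicate 3 fell within the Control range, so the groups overlapped. From 1136 ± 87.7 in Control and 1423 ± 204 in TfR1 knockout (SD, n = 3 each), the log2 fold change was 0.32 (SE 0.18, 95% interval -0.03 to 0.68). That interval spans no change, and the adjusted p was 0.238 by DESeq2 and 0.228 by edgeR.

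Ptgs2 encodes the inducible cyclooxygenase, which in the kidney is known from the macula densa, the thick limb beside it and medullary interstitial cells. It lies at chr1:151947254-151955140 on the plus strand (mm9). Ptgs2 had 43.7, 28.2 and 34.4 normalized counts in the Control replicates and 115, 98.5 and 117 in the TfR1 knockout replicates, from 31 to 53 raw reads per Control library and 77 to 124 per TfR1 knockout library. Every TfR1 knockout library was well above the highest Control library. The means were 35.4 ± 7.81 in Control and 110.4 ± 10.3 in TfR1 knockout (SD, n = 3 each), a 3.11-fold rise. On the log2 scale the change was 1.64 (SE 0.32, 95% interval 1.01 to 2.26), with an adjusted p of 1.2e-05 by DESeq2 and 0.0240 by edgeR, and 1.08e-05 to 0.0240 over all 15 alternatives. With each library left out in turn, the log2 fold change ran from 1.49 to 1.82. In the 4 libraries with low adrenal cortex markers it was 1.77 with a DESeq2 adjusted p of 0.0763, so the call was lost there while the size was kept.

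The cyclooxygenase transcripts differed in level as well as in change. Per kilobase of exon, Ptgs1 stood at 292 ± 22.6 and Ptgs2 at 8.55 ± 1.89 normalized counts in Control, and at 366 ± 52.5 and 26.7 ± 2.49 in TfR1 knockout (SD, n = 3 each). Ptgs2 made up 3.71, 2.33 and 2.55% of the summed cyclooxygenase level per kilobase in the Control libraries and 6.70, 5.55 and 8.46% in the TfR1 knockout libraries. The groups did not overlap in this share, and Ptgs1 still made up most of it in every library.

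Ptges encodes the membrane-bound synthase that makes prostaglandin E2 and is usually induced together with Ptgs2. It lies at chr2:30744991-30785383 on the minus strand (mm9). Ptges had 1009, 1014 and 704 normalized counts in the Control replicates and 2159.9, 1291 and 1433 in the TfR1 knockout replicates. All 3 TfR1 knockout libraries were above all Control libraries, but TfR1 knockout replicate 1 was far above its group. The means were 909 ± 178 in Control and 1628 ± 466 in TfR1 knockout (SD, n = 3 each). The log2 fold change was 0.84 (SE 0.27, 95% interval 0.31 to 1.37), with an adjusted p of 0.0190 by DESeq2 and 0.0864 by edgeR. Over the 15 alternatives the adjusted p ran from 0.00671 to 0.0897, and it was below 0.05 in 8 of them. Without TfR1 knockout replicate 1 the difference was 0.58 with a DESeq2 adjusted p of 0.0777, and leaving out any single Control library also took the adjusted p above 0.05 (0.0553 to 0.0739). In the 4 libraries with low adrenal cortex markers the difference was 1.00 (SE 0.40) with a DESeq2 adjusted p of 0.162.

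Ptgds encodes lipocalin-type prostaglandin D synthase, a secreted enzyme that also carries small lipids, at chr2:25322229-25325566 on the minus strand (mm9). Its libraries held 921, 813 and 814 normalized counts in the Control replicates and 355, 576 and 375 in the TfR1 knockout replicates. The highest TfR1 knockout library, replicate 2, stayed below the lowest Control library. Ptgds fell from 849 ± 62.2 in Control to 435 ± 122 in TfR1 knockout (SD, n = 3 each). Its log2 fold change was -0.97 (SE 0.24, 95% interval -1.45 to -0.49), just short of 2-fold, with an adjusted p of 0.00135 by DESeq2 and 0.0379 by edgeR. It passed the adjusted p in all 15 alternatives (2.08e-09 to 0.0428) and reached 2-fold in 5 of them. In the 4 libraries with low adrenal cortex markers the difference was -0.81 with a DESeq2 adjusted p of 0.333.

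Slco2a1 encodes the prostaglandin transporter, which carries prostaglandins across the cell membrane ahead of their oxidation. It lies at chr9:102910817-102990179 on the plus strand (mm9). Slco2a1 had 566, 579 and 468 normalized counts in the Control replicates and 916, 957 and 1104 in the TfR1 knockout replicates. The lowest TfR1 knockout library was far above the highest Control library. The transcript rose 1.85-fold, from 538 ± 60.5 in Control to 992 ± 98.9 in TfR1 knockout (SD, n = 3 each). Its log2 fold change was 0.88 (SE 0.18, 95% interval 0.53 to 1.24), with an adjusted p of 3.75e-05 by DESeq2 and 0.0220 by edgeR, and 1.82e-05 to 0.0220 over the 15 alternatives. It stayed under 2-fold in all of them, and in the 4 libraries with low adrenal cortex markers it was 0.83 with a DESeq2 adjusted p of 0.232.

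Hpgd encodes the dehydrogenase that oxidises prostaglandins to inactive products, the first step of their breakdown. It lies at chr8:58773349-58799843 on the plus strand (mm9). Hpgd had 906, 883 and 662 normalized counts in the Control replicates and 311, 242 and 354 in the TfR1 knockout replicates. Each TfR1 knockout library was far below the lowest Control library. Hpgd fell 2.70-fold, from 817 ± 135 in Control to 302 ± 56.5 in TfR1 knockout (SD, n = 3 each). Its log2 fold change was -1.43 (SE 0.24, 95% interval -1.90 to -0.97), with an adjusted p of 9.13e-08 by DESeq2 and 0.0123 by edgeR. It was called in all 15 alternatives (adjusted p 2.59e-09 to 0.0130), with log2 fold changes of -1.57 to -1.29, and in the 4 libraries with low adrenal cortex markers (-1.49, DESeq2 adjusted p 0.00606).

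**Figure D2:**
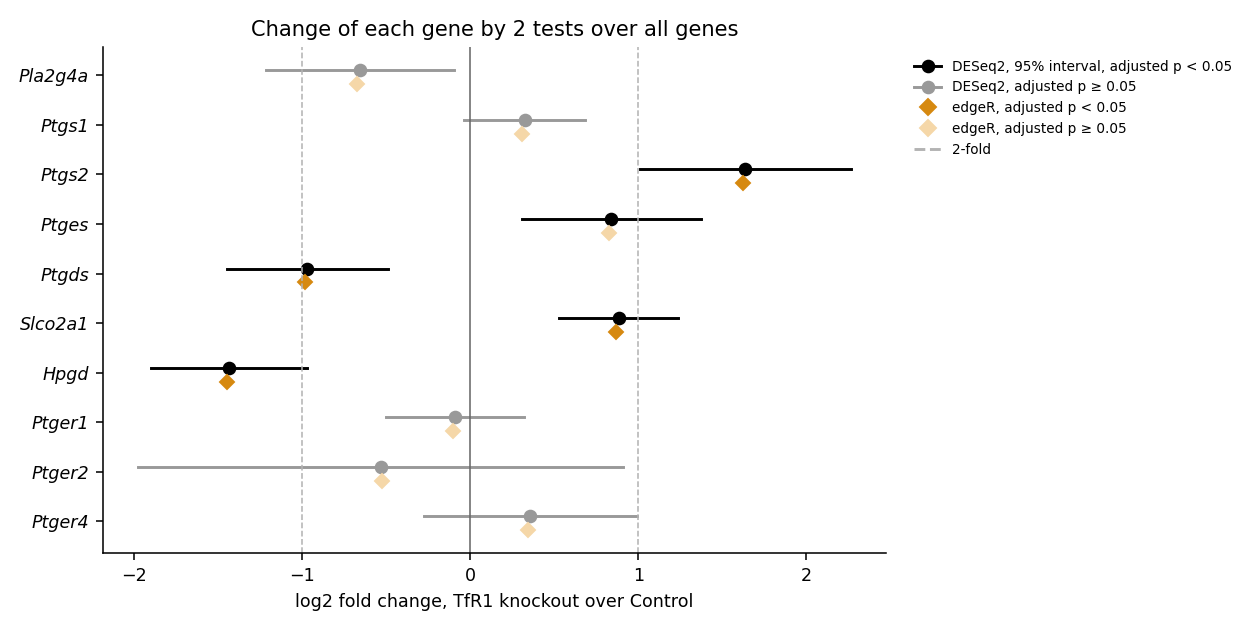
Log2 fold change of TfR1 knockout over Control for the 10 prostaglandin genes, with DESeq2 values as circles with 95% intervals and edgeR values as diamonds. Dark symbols have an adjusted p below 0.05, dashed lines mark 2-fold, and Ptgs2 (1.64) and Hpgd (-1.43) lie beyond them.

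Ptger1 encodes the EP1 receptor, which raises calcium in the cell, at chr8:86190732-86196652 on the plus strand (mm9). Its libraries held 1093, 1099.8 and 853 normalized counts in the Control replicates and 1137, 848 and 877 in the TfR1 knockout replicates. The groups overlapped throughout, with means of 1015 ± 141 in Control and 954 ± 159 in TfR1 knockout (SD, n = 3 each). The log2 fold change was -0.09 (SE 0.21, 95% interval -0.50 to 0.32), and the adjusted p was 0.827 by DESeq2 and 0.740 by edgeR. The interval leaves out a 2-fold change in either direction.

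Ptger2 encodes the EP2 receptor, which raises cyclic AMP, at chr14:45607870-45623495 on the plus strand (mm9). It was the least abundant member, with 9.89, 10.9 and 22.6 normalized counts in the Control replicates and 14.9, 5.12 and 9.46 in the TfR1 knockout replicates, from 4 to 21 raw reads per library. The groups overlapped and the log2 fold change was -0.53 (SE 0.74, 95% interval -1.97 to 0.91), with an adjusted p of 0.691 by DESeq2 and 0.567 by edgeR. At this depth the interval takes in both a fall and a rise, so a change of Ptger2 was not detectable.

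Ptger4 encodes the EP4 receptor, which also raises cyclic AMP, at chr15:5156661-5194187 on the minus strand (mm9). Its libraries held 210.3, 193 and 369 normalized counts in the Control replicates and 406, 276 and 306 in the TfR1 knockout replicates. Control replicate 3 lay within the TfR1 knockout range and well above the other Control libraries. From 257 ± 97.2 in Control and 329 ± 67.9 in TfR1 knockout (SD, n = 3 each), the log2 fold change was 0.36 (SE 0.32, 95% interval -0.28 to 0.99), with an adjusted p of 0.504 by DESeq2 and 0.494 by edgeR. Without Control replicate 3 it was 0.71 with a DESeq2 adjusted p of 0.0596. Ptger4 made up 92.2, 90.7 and 90.1% of the Ptger2 and Ptger4 level per kilobase in Control and 93.8, 96.8 and 94.7% in TfR1 knockout. Antisense genes overlap 1.2% (Ttc33) and 15.3% (Gm15937) of its exon bases.

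**Figure D3:**
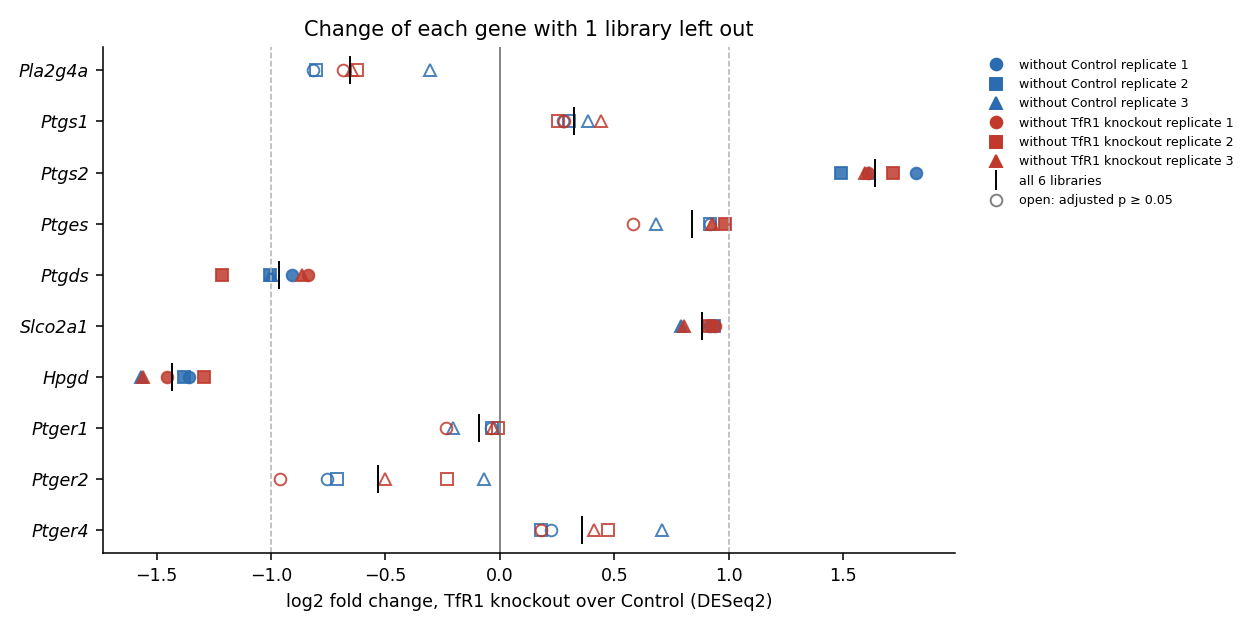
Log2 fold change by DESeq2 for each prostaglandin gene with 1 of the 6 libraries left out, where black ticks mark the value from all libraries and open symbols an adjusted p of 0.05 or more. Ptgs2 stayed between 1.49 and 1.82 and Hpgd between -1.57 and -1.29, while Pla2g4a, Ptger2 and Ptger4 each moved most when Control replicate 3 was left out.

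Levels can be compared between genes only per length. Per kilobase of exon, the order in Control was Ptgds (515 ± 37.8 normalized counts per kb), Hpgd (475 ± 78.5), Ptgs1 (292 ± 22.6), Ptges (231 ± 45.2), Ptger1 (205 ± 28.4), Pla2g4a (137 ± 51.7), Slco2a1 (133 ± 15.0), Ptger4 (38.7 ± 14.6), Ptgs2 (8.55 ± 1.89) and Ptger2 (3.93 ± 1.92; SD, n = 3 each). Neighbours that overlapped between libraries in Control were Ptgds and Hpgd, Ptges and Ptger1, Ptger1 and Pla2g4a, and Pla2g4a and Slco2a1. In TfR1 knockout, Ptges came first (414 ± 119), followed by Ptgs1 (366 ± 52.5), Ptgds (264 ± 74.1), Slco2a1 (246 ± 24.5), Ptger1 (192 ± 32.0), Hpgd (176 ± 32.9), Pla2g4a (87.1 ± 3.55), Ptger4 (49.5 ± 10.2), Ptgs2 (26.7 ± 2.49) and Ptger2 (2.67 ± 1.33). From Ptges down to Hpgd, each gene overlapped the next in that order, while Hpgd did not overlap Pla2g4a. Genes further apart did not all overlap: Ptges and Ptgs1 were above Slco2a1 and Hpgd in every TfR1 knockout library. Hpgd went from rank 2 to rank 6 and Ptges from rank 4 to rank 1.

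Ratios of genes within 1 library do not depend on the size factor of that library. The pairs below were chosen after the values were seen, and the ratios are given as a description with no test. Ptges to Hpgd, the synthase of prostaglandin E2 against the enzyme that inactivates it, stood per kilobase at 0.487, 0.502 and 0.465 in Control and at 3.03, 2.33 and 1.77 in TfR1 knockout. The mean ratio was 0.485 ± 0.0186 in Control and 2.38 ± 0.633 in TfR1 knockout (SD, n = 3 each), so per kilobase Ptges was the lower transcript in every Control library and the higher in every TfR1 knockout library. That crossing depends on the exon lengths used. In raw reads Ptges was above Hpgd in the Control replicates as well (1224 against 1099, 1116 against 972 and 654 against 615). Slco2a1 to Hpgd, uptake against oxidation, was 0.266, 0.279 and 0.301 in Control and 1.25, 1.69 and 1.33 in TfR1 knockout, and it too crossed 1 between the groups. Ptges to Ptgds was 0.459, 0.523 and 0.363 in Control and 2.55, 0.940 and 1.60 in TfR1 knockout. In that last pair TfR1 knockout replicate 2 remained below 1. The side of 1 again depends on the exon lengths. In raw reads Ptges was above Ptgds in that library (1009 against 450). It was also above in Control replicates 1 and 2 (1224 against 1117 and 1116 against 894), and below in Control replicate 3 (654 against 756). These values are transcript levels, and no prostaglandin was measured here.

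**Figure D4:**
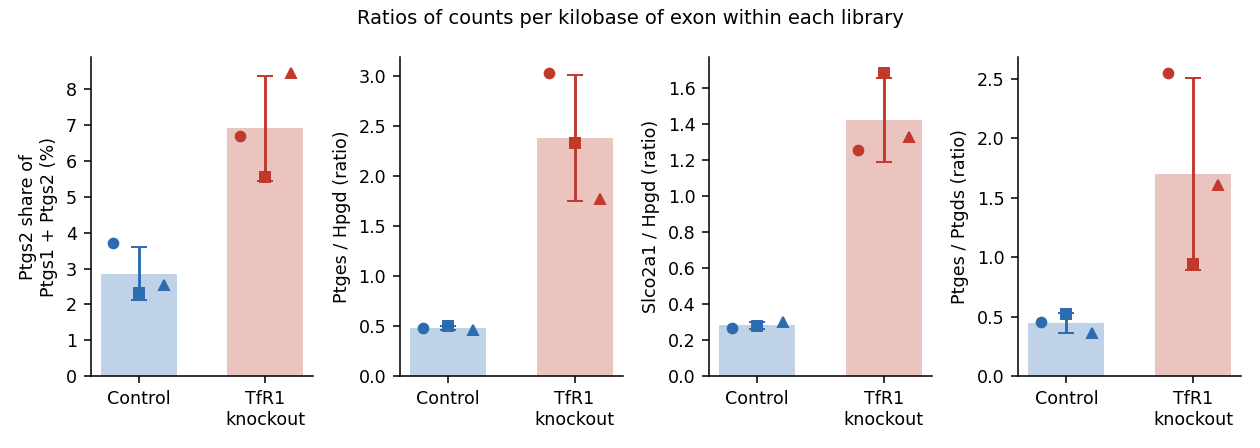
Ratios of transcript levels per kilobase of exon within each library (linear axes from 0), with Ptgs2 as a percentage of both cyclooxygenases in the first panel. Points are the 3 libraries of a group, bars their mean and error bars the SD. Ptges to Hpgd ran from 0.465 to 0.502 in Control and from 1.77 to 3.03 in TfR1 knockout, with no overlap.

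Of 36 other eicosanoid genes found in the table, 29 were tested and 6 were called by DESeq2, 2 higher and 4 lower, against 4.41% higher and 4.46% lower over all genes tested. The DESeq2 adjusted p alone was passed by 8, 4 in each direction, against 14.9% of all genes tested. By edgeR, 3 were called, against 4.79% of its genes tested. By role, 1 of 5 phospholipases A2 tested and 2 of 7 prostanoid synthases were called lower. So was 1 of 5 genes listed as prostanoid receptors, which include Ptger3 and the receptor regulator Ptgfrn. Of the leukotriene and lipoxygenase genes, 2 of 9 were called higher, and none of the 3 export and breakdown genes was called. The median log2 fold change of the tested genes was 0.0068.

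Pla2g5, a secreted phospholipase A2, had 238, 223 and 208 normalized counts in the Control replicates and 37.8, 23.0 and 14.2 in the TfR1 knockout replicates, and all TfR1 knockout libraries were far below the Control libraries. Its log2 fold change was -3.16 (SE 0.37, 95% interval -3.88 to -2.43), with an adjusted p of 2.56e-15 by DESeq2 and 0.00610 by edgeR, the most negative among the 6 called. Fam213b, reported to act as a prostaglandin F synthase, fell from 578 ± 54.3 in Control to 132 ± 39.5 in TfR1 knockout (SD, n = 3 each). Its log2 fold change was -2.13 (SE 0.28, 95% interval -2.67 to -1.59), with an adjusted p of 1.69e-12 by DESeq2 and 0.00642 by edgeR. Tbxas1, which makes thromboxane A2, fell from 192 ± 13.8 in Control to 77.1 ± 18.9 in TfR1 knockout (SD, n = 3 each), with a log2 fold change of -1.32 (SE 0.27, 95% interval -1.85 to -0.78) and an adjusted p of 5.22e-05 by DESeq2 and 0.0305 by edgeR. Tbxa2r, the thromboxane receptor, stood at 341 ± 68.3 in Control and 162 ± 66.3 in TfR1 knockout (SD, n = 3 each), with a log2 fold change of -1.07 (SE 0.36, 95% interval -1.78 to -0.36) and an adjusted p of 0.0259 by DESeq2 and 0.110 by edgeR. Its call was lost by edgeR (-1.09), by limma-voom (-1.12), without Control replicate 1 (-1.15), 2 (-1.18) or 3 (-0.90), and without TfR1 knockout replicate 2 (-0.77).

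Among the leukotriene and lipoxygenase genes, Alox15, the 12/15-lipoxygenase, had 45.3, 36.4 and 24.8 normalized counts in the Control replicates and 467, 75.5 and 173 in the TfR1 knockout replicates. TfR1 knockout replicate 1 was far above the rest, yet every TfR1 knockout library exceeded every Control library. The log2 fold change was 2.75 (SE 0.60, 95% interval 1.56 to 3.93), with an adjusted p of 0.000150 by DESeq2 and 0.0550 by edgeR, and without TfR1 knockout replicate 1 it was 1.81. Alox5ap, the protein that hands arachidonic acid to 5-lipoxygenase, stood at 51.5 ± 32.9 in Control and 131 ± 26.3 in TfR1 knockout (SD, n = 3 each), with a log2 fold change of 1.36 (SE 0.47, 95% interval 0.44 to 2.28) and an adjusted p of 0.0294 by DESeq2 and 0.121 by edgeR. That call was lost in 9 of 15 alternatives, which include leaving out Control replicate 1 or 2 or any 1 TfR1 knockout library, with log2 fold changes of 1.07 to 1.52 in those 9. In the 4 libraries with low adrenal cortex markers, DESeq2 called Pla2g5, Fam213b and Alox15, while Tbxas1 (-1.17, adjusted p 0.214), Tbxa2r (-1.37, adjusted p 0.100) and Alox5ap (1.20, adjusted p 0.355) were not called.

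Whole kidney RNA mixes many cell types, and prostaglandin genes are used by several of them. Markers were called by DESeq2, which called 8.87% of all genes tested. In the macrophage, collecting duct and thick limb lists, the called genes that did not pass by edgeR were C1qb (adjusted p 0.0504), Aqp3 (0.0966) and Slc12a1 (0.0854). The macrophage list (5 of 9 genes called higher) summed to 3254 to 5035 normalized counts in Control and 6759 to 10773 in TfR1 knockout. The collecting duct principal cell list (2 of 7 higher) ran from 10043 to 20046 in Control and from 37742 to 65253 in TfR1 knockout. Aqp2, the vasopressin-regulated water channel, carried most of that rise (4579 ± 1881 to 30696 ± 17578, SD, n = 3 each). Without Aqp2 the list summed to 7634 to 14466 in Control and 14521 to 19937 in TfR1 knockout, and Avpr2, Scnn1g and Hsd11b2 overlapped between the groups. The macula densa and thick limb list (1 of 6 higher, 3 lower) holds genes that moved in opposite directions. Its sum, 43135 to 88404 in Control and 14482 to 25335 in TfR1 knockout, is mostly Umod (39215 ± 14669 to 3126 ± 1431) and Slc12a1 (30002 ± 9146 to 13108 ± 5163), which are thick limb genes, and Cldn16 was also called lower. Pappa2, known from the macula densa, had 143, 257 and 101 normalized counts in Control and 1443, 1773 and 2712 in TfR1 knockout, an 11.8-fold rise (DESeq2 adjusted p 3.24e-18), while Nos1 and Ptger3 overlapped between the groups. These genes were singled out after their values were seen. The part of these lists in the differences of Ptgs2, Hpgd, Ptgds, Slco2a1 and Ptges was not tested.

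The sums of the other lists overlapped between the groups. Proximal tubule markers (1 of 5 higher, 2 lower) summed to 46155 to 91226 in Control and 37580 to 51812 in TfR1 knockout. Control replicate 3 held the 46155, against 89180 and 91226 in the other Control libraries. Slc5a2 (4539 ± 1355 to 130 ± 60.6, SD, n = 3 each) and Lrp2 (21473 ± 7433 to 7700 ± 2736) were called lower. Slc22a6 (2693 ± 1296 to 9321 ± 1646) was called higher, while Slc34a1 and Slc5a12 overlapped between the groups. By edgeR, Lrp2 did not pass (adjusted p 0.0537). Interstitium markers (2 of 6 lower) reached 100670 in Control replicate 3 against 27240 to 49135 in the other 5 libraries. Control replicate 3 was also the highest library for Pla2g4a. The called interstitium genes, Col3a1 and Lum, did not pass by edgeR (adjusted p 0.134 and 0.0896). Neutrophil markers (2 of 5 higher) summed to 129 to 370.3 in Control and 256 to 921 in TfR1 knockout. The called neutrophil genes, S100a8 and S100a9, overlapped between the groups and did not pass by edgeR (adjusted p 0.119 and 0.118). Podocyte markers (1 of 4 higher) summed to 8832 to 13242 in Control and 12157 to 15162 in TfR1 knockout. No gene of the endothelium or urothelium lists was called, and the adrenal cortex genes had no DESeq2 adjusted p. Of the 3 red cell markers, Hbb-b1 and Hba-a1 were listed at 0 in every library.

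**Figure D5:**
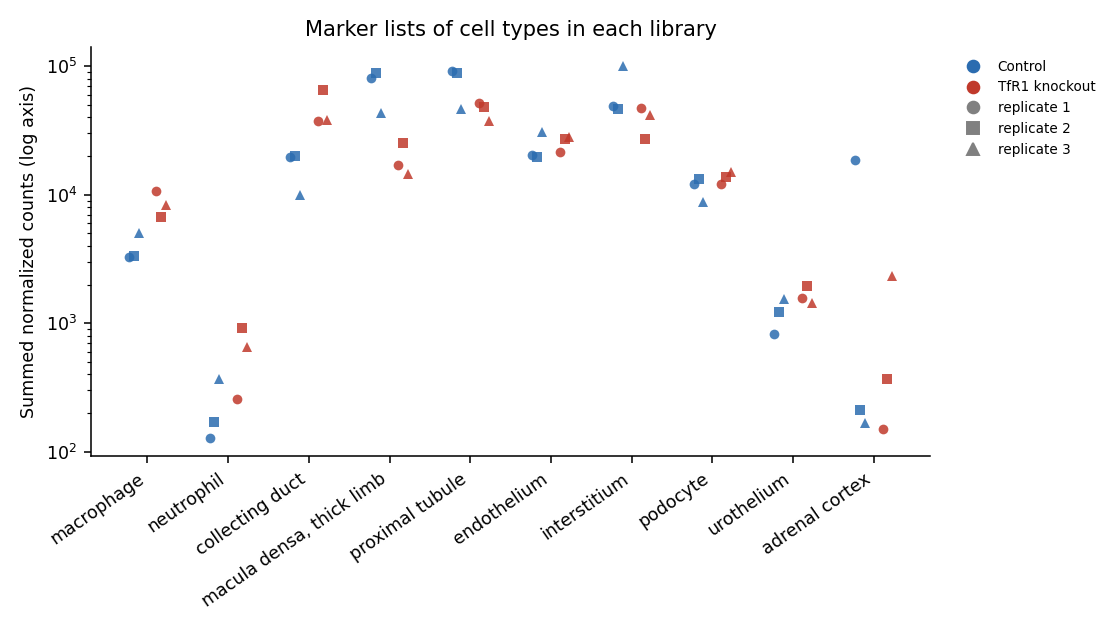
Summed normalized counts (log axis) of each list of cell type markers in the 6 libraries. Macrophage and collecting duct sums were higher in all TfR1 knockout libraries, the latter mostly through Aqp2, the pooled macula densa and thick limb sum was lower through Umod and Slc12a1 while Pappa2 in it rose, and adrenal cortex markers stood out in Control replicate 1 (18773).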

How the data were processed

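Whole mouse kidney RNA was made into 6 poly-A libraries (3 Control, 3 TfR1 knockout) and sequenced as single-end reads. Per the labels and the study's methods, the authors made base calls with CASAVA 1.8.2, trimmed reads with Trimmomatic, aligned them to mm9 with TopHat 2.0.11 and counted unique reads per gene with HTSeq. The deposited values are raw counts per gene. The annotation and strand setting of the counting are not given in the sources used here, so antisense genes cannot be told apart, and the overlap of Ptger1 exons with other genes is not reported here. The study's own test was DESeq2, and it was the main test here (DESeq2 1.42.0, R 4.3.3, Wald test, median-ratio size factors, independent filtering at 0.05, a mean of 3.51 normalized counts as the filter). Of 24422 genes, 19985 had counts and 16509 were tested, while 29 had no p through the outlier filter. At the same thresholds the study reported fewer genes in each direction than the 728 higher and 736 lower called here. The reason for that difference was not tested. edgeR 4.0.16 (quasi-likelihood, TMM) and limma 3.58.1 (voom) were alternatives, with other size factors, filters, a replicate block and each library left out. The DESeq2, edgeR and limma-voom fits were tested on simulated data. The added changes were all above 2-fold and in genes with more counts than Ptger2. Smaller changes and low counts were therefore not covered. All p-values were adjusted over all genes. Exon lengths and gene positions came from GENCODE on NCBIM37 (mm9), and promoters from RefSeq on GRCm38.p6.

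The members and gene lists were chosen with earlier results of these data known. All members are named. Of the other pathway genes, those called and averaging 20 or more normalized counts are named, and of the markers their sums. Single marker genes were named after seeing the data. The fit on the 4 libraries with low adrenal cortex markers and the alternatives for the 6 named pathway genes were chosen after seeing the data. Libraries of 16591156 to 22898008 counts limit precision mainly for Ptger2 and Ptgs2. No pair of libraries agreed within counting noise (chi-square per degree of freedom 8.81 or more). Control replicates 1 and 2 were the closest pair (8.81), and they differed from Control replicate 3 at 64.8 and 67.8. The remaining pairs ran from 30.8 to 155.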

Additional observations from a re-analysis of the deposited data

How the results depend on the processing

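Over 15 alternatives for each of the 10 prostaglandin genes, 145 of 150 fits kept the direction and side of the threshold, and the other 5 brought Ptgds past 2-fold (limma-voom -1.04, total-count scaling -1.09, upper-quartile scaling -1.02, without TfR1 knockout replicate 2 -1.21, and without Control replicate 2, just past 2-fold). None of these turned a direction, while in the 4 libraries with low adrenal cortex markers Ptger1, which was not called, stood at 0.02. For the 6 other named genes, 73 of 90 fits kept the call and 17 lost it. Against 1464 called genes by DESeq2, edgeR called 733, limma-voom 737, the adjusted p alone 2463, a test against 2-fold 208, and the 4 libraries with low adrenal cortex markers 681. For the prostaglandin genes the adjusted p alone gave 5, and the 4 libraries gave 1. DESeq2's test against 2-fold gave 0, with 1 at an unadjusted p under 0.05, and edgeR was not run for it. For the other pathway genes edgeR gave 3, limma-voom 3, the test against 2-fold 2 and the 4 libraries 3. The fit with 4 libraries holds fewer samples and also lacks the libraries with high adrenal cortex markers. Which of these lowered its counts was not tested. Leaving out 1 library gave 1038 to 1967 genes, 2 to 3 prostaglandin genes and 4 to 6 other pathway genes. Ptger2, with 4 to 21 reads per library, was limited by depth.

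Deviations from the group means of libraries with the same replicate number correlated at 0.0148, 0.0663 and 0.155 over genes. Replicates 2 and 3 of both groups correlated best with their own number, and replicate 1 of both groups did not. These values do not settle whether a shared number marks a pairing. The main fit used no pairing. With a replicate block, 1408 genes, 2 prostaglandin genes and 6 other pathway genes were called.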
